A study of Mus musculus with 8 samples.

Results

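Expression of 9 genes known from regulatory T cells was followed in CD8+ T cells, the cytotoxic lineage. The genes were *Foxp3*, *Ikzf2*, *Ikzf4*, *Gpr83*, *Nrp1*, *Lrrc32*, *Capg*, *Axl* and *Cd83*. They were listed by symbol with earlier results of these data known, and all 9 were found among the 48321 gene symbols of the count tables. The cells were sorted peripheral CD8+ T cells from the spleen of C57BL/6 mice, and each of the 4 groups (Day_0_WT, Day_0_KO, Day_5_WT and Day_5_KO) held 2 libraries. Day 5 cells had been cultured and, per the title of the series, stimulated in vitro. The genotype behind KO is *Satb1* F/F; *E8I-cre*, in which floxed alleles meet a Cre driver of mature CD8 lineage cells, and SATB1 is a nuclear protein that organises chromatin in T cells. The stimulus, the age and sex of the mice, whether replicates came from separate mice, and which alleles or transgenes the WT mice carried are not given by the labels, so p-values measure only the spread between these libraries.

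Regulatory T cells restrain other lymphocytes, and in mice the best known of them belong to the CD4+ lineage. FOXP3 is the transcription factor that defines them, and the related zinc finger factors Helios (*Ikzf2*) and Eos (*Ikzf4*) act beside it. At the surface they often carry GPR83, a G protein-coupled receptor, neuropilin-1 (*Nrp1*), a semaphorin and VEGF receptor, and GARP (*Lrrc32*), which holds latent TGF-beta on the membrane once the cells are activated.

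The libraries held 4170126 to 11117971 gene counts, and 21.2% to 24.5% of records were assigned to genes. Pearson correlations of log2 CPM, the counts of a gene scaled to a common library size, were 0.975 to 0.980 across genes within each replicate pair. The spread between replicate counts was not even. As chi-square per degree of freedom, it was 4.69 in Day_0_WT, 9.31 in Day_0_KO, 9.40 in Day_5_WT and 4.76 in Day_5_KO. The whole-gene count of the targeted gene was not lower under the KO label at day 0. Counts of single exons were not used here, so whether the floxed exons were lost was not checked. *Satb1* was at 97.8 and 91.6 CPM in WT and 144 and 125 CPM in KO-labelled cells at day 0 (log2 fold change 0.51, SE 0.15, FDR 0.125), against 96.5 and 116 CPM in WT and 56.5 and 62.3 CPM in KO at day 5 (log2 fold change -0.84, SE 0.15, FDR 0.0162). FDR is the Benjamini-Hochberg adjusted p of the edgeR quasi-likelihood test over the 12597 genes tested, and genes under 0.05 were called. The groups are therefore called KO-labelled, and every direction between genotypes rests on that label. Summed CPM of 6 CD8 T-cell markers was 8701 to 9895 at day 0 and 5100 to 5719 at day 5, no marker of the list was at 0 in a group, and *Cd8a* was the 1 called between genotypes, higher in KO-labelled cells at day 5. The cells thus carried the markers of their label.

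Each member lies on its own stretch of the GRCm38 assembly. *Foxp3* is at chrX:7573644-7595245 on the plus strand, *Ikzf2* at chr1:69531214-69687245 on the minus strand, *Ikzf4* at chr10:128630843-128645991 on the minus strand and *Gpr83* at chr9:14860210-14870789 on the plus strand. *Nrp1* is at chr8:128358604-128503363 (plus), *Lrrc32* at chr7:98489283-98502181 (plus), *Capg* at chr6:72544391-72562983 (plus), *Axl* at chr7:25757273-25788705 (minus) and *Cd83* at chr13:43784775-43803132 (plus). Of the exon length of *Foxp3*, 18.7% lies in exons of genes on the other strand (*Ppp1r3f*, *Gm36995* and *Ccdc22*), and 18.6% in the noncoding RNA *Flicr* on its own strand, which is not a symbol of the count tables. Since the strand setting of the counting is unknown, reads of *Foxp3* and of these neighbours cannot be told apart there. *Ccdc22* had 6 to 49 counts and no call at either day (FDR 0.437 and 0.842), and *Ppp1r3f* had 1 to 8 counts. For the other 8 members, at most 1.24% of the exon length was shared in this way.

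Promoter windows, the 250 bases before an annotated start, were in the RefSeq table (GRCm38.p6) for 5 of the 9 members (*Foxp3*, *Gpr83*, *Nrp1*, *Capg* and *Axl*). The windows of *Foxp3* and *Gpr83* are shown because, of the members, these moved furthest in opposite directions between genotypes before culture. They were thus picked by that outcome, and *Ikzf2*, the other member called higher, had no window. SATB1 is known to bind DNA rich in A and T, but its binding was not measured here. The A+T shares below are only a description of the sequence. For *Foxp3*, the part of the window at chrX:7579426-7579675 that lies outside its own exons and any annotated UTR (chrX:7579426-7579566), the whole window at chrX:7580233-7580482, and for *Gpr83* the window at chr9:14859960-14860209, all on the plus strand, read as follows, with capitals marking an NFAT core match on the reverse strand (GGAAAA) that overlaps a STAT match (TTCNNNGAA).
Foxp3 start 1: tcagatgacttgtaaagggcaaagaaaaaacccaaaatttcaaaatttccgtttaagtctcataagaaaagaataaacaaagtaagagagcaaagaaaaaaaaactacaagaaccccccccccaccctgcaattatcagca
Foxp3 start 2: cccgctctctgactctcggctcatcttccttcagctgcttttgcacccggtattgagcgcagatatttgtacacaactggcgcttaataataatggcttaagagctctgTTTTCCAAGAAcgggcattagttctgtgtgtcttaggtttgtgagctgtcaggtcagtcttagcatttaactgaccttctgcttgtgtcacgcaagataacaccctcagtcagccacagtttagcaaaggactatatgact
Gpr83: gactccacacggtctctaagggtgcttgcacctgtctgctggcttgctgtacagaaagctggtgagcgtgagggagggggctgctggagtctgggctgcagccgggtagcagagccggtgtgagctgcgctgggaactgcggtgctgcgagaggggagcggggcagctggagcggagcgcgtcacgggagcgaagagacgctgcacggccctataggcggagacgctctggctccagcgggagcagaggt

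The whole *Foxp3* windows were 62.4% and 54.0% A+T, more than 91.6% and 71.6% of the 32851 windows of the table, whose median was 47.6%. The *Gpr83* window was 33.2% A+T, more than 13.5% of them. Windows of *Capg*, *Axl* and *Nrp1* were 42.4%, 40.0% and 35.6% A+T. Both matches in the second *Foxp3* window, which begin 141 and 139 bases before the start, were the only ones among the 6 windows of the members when NFAT core, STAT, AP-1 (TGANTCA) and CRE (TGACGTCA) letters were searched on both strands. These letters are common, being present in 20.4%, 7.02%, 6.75% and 1.55% of all windows, and a match is only a description of the sequence. Both *Foxp3* windows also lie inside an annotated exon of *Flicr*.

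Before culture, the genotypes differed in 4 of the 9 members, 2 higher and 2 lower in KO-labelled cells, where 1.8% of all tested genes were called. The members were chosen with earlier results of these data known, so this count beside that share is a description. *Foxp3* and *Ikzf2* were higher, *Gpr83* and *Capg* were lower, and the other 5 were not called. The members therefore did not move in 1 direction, and their median log2 fold change was -0.33, beside 0.00 (-0.0017) over all genes.

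**Figure D1:**
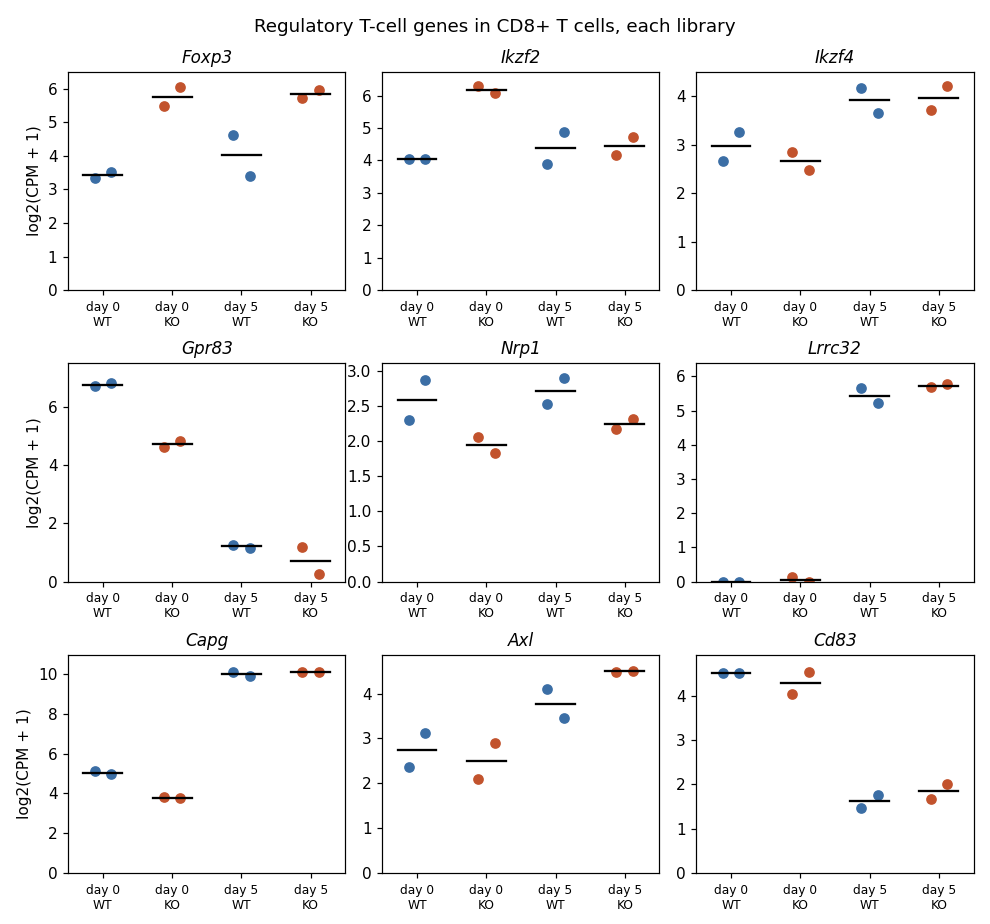
Each panel plots log2(CPM + 1) of a member in the 8 libraries (points; blue WT, red labelled KO), with the mean of the 2 libraries of each group as a bar. Called higher in KO-labelled cells are *Foxp3* at both days and *Ikzf2* at day 0, and called lower are *Gpr83* and *Capg* at day 0. *Ikzf4*, *Gpr83*, *Lrrc32*, *Capg*, *Axl* and *Cd83* separate the days.

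*Foxp3*, which encodes the defining transcription factor, was at 9.12 and 10.4 CPM in WT at day 0 and at 43.8 and 65.9 CPM in KO-labelled cells. After culture it was at 23.8 and 9.64 CPM in WT and at 51.7 and 61.9 CPM in KO-labelled cells. All 4 KO-labelled libraries thus lay above all 4 WT libraries, and within a group the ratio of replicates was widest in WT at day 5. At day 0 the mean rose from 9.76 ± 0.904 CPM (SD, n = 2) to 54.8 ± 15.7 CPM, 5.61-fold (log2 fold change 2.48, SE 0.34, FDR 0.00271). At day 5 it was 16.7 ± 10.02 CPM in WT and 56.8 ± 7.23 CPM in KO-labelled cells, 3.40-fold higher (log2 fold change 1.73, SE 0.32, FDR 0.0193). Each call had an exception among the leave-one-out fits. At day 0 it was lost without WT replicate 1 or 2 (FDR 0.0923 and 0.0602). At day 5 it was lost without either WT library of day 0 (FDR 0.0518 and 0.0527), without WT replicate 2 of day 5 (log2 fold change 1.25, FDR 0.0754) and without KO replicate 1 or 2 of day 5 (FDR 0.0695 and 0.174). Without WT replicate 1 of day 5 it was kept at a larger log2 fold change, 2.57 (FDR 0.00617). The difference between the days was not called (interaction -0.75, SE 0.47, FDR 0.552).

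In bulk RNA, more cells with a transcript and more transcript per cell cannot be told apart. The *Foxp3* counts were 51 and 46 in WT and 510 and 359 in KO-labelled cells at day 0, and 135 and 40, then 281 and 327, at day 5. *Cd4*, which marks the lineage of most regulatory T cells, had 0 and 1 counts in WT and 7 and 5 in KO-labelled cells at day 0, and 3 to 5 in each day 5 library. The summed level of 3 CD4 T-cell markers (*Cd4*, *Zbtb7b* and *Cd40lg*) was 1.36 to 3.58 CPM in WT and 6.06 to 6.26 CPM in KO-labelled cells at day 0, and 2.65 to 3.22 CPM at day 5. The sums did not overlap at day 0. *Cd4* did not pass the filter on low counts, and neither of the 2 markers tested was called between genotypes. *Cd40lg* had 9 and 5 counts in WT and 66 and 21 in KO-labelled cells at day 0 (log2 fold change 1.79, SE 0.52, FDR 0.134), and passed the filter on low counts only through the latter. No marker of the 3 was at 0 in a whole group. *Foxp3* had more reads than *Cd4* in each library, and the summed CD4 markers were higher beside *Foxp3* in the KO-labelled day 0 libraries. The part of CD4 T cells in the *Foxp3* difference was not tested.

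*Ikzf2*, which encodes Helios, was called beside *Foxp3* before culture and not after it. It was at 15.6 and 15.6 CPM in WT and at 77.3 and 66.2 CPM in KO-labelled cells at day 0, without overlap. At day 5 it was at 13.8 and 28.2 CPM in WT and at 17.1 and 25.6 CPM in KO-labelled cells, and the groups overlapped. The mean at day 0 rose 4.61-fold, from 15.6 ± 0.0283 to 71.8 ± 7.81 CPM (log2 fold change 2.21, SE 0.29, FDR 0.00198), a call lost without WT replicate 1 or 2 of day 0 (FDR 0.0741 and 0.0555). At day 5 the log2 fold change was 0.05 (SE 0.30, FDR 0.970). In KO-labelled cells, *Ikzf2* fell between day 0 and day 5 by 1.75 on the log2 scale (SE 0.28, FDR 0.000219). In WT the change was 0.40 (SE 0.31, FDR 0.305). The difference between these changes was -2.16 (SE 0.42) and lay just outside the threshold (FDR 0.0597). It passed with no filter on low counts (FDR 3.51e-07), a robust prior (0.0470), DESeq2 (0.000336), equal depth (0.0410) and without WT replicate 1 of day 5 (0.0183), and its FDR was at most 0.354 over the alternatives.

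*Ikzf4*, which encodes Eos, did not differ between genotypes beyond the threshold and rose with culture in both. It was at 5.37 and 8.59 CPM in WT and at 6.18 and 4.59 CPM in KO-labelled cells at day 0, and at 17.1 and 11.6, then 12.1 and 17.4 CPM, at day 5. The day 5 libraries were all above the day 0 libraries. Between genotypes the log2 fold changes were -0.33 (SE 0.35, FDR 0.767) at day 0 and 0.03 (SE 0.32, FDR 0.983) at day 5. With culture it rose by 1.07 in WT (SE 0.34, FDR 0.0211) and by 1.42 in KO-labelled cells (SE 0.33, FDR 0.00325). The WT call was lost without WT replicate 1 of day 0 or of day 5 (FDR 0.164 and 0.167).

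The 3 other Ikaros genes, *Ikzf1*, *Ikzf3* and *Ikzf5*, were not called between genotypes at either day. In culture 2 fell in WT and 3 in KO-labelled cells, where 23.6% and 24% of all genes fell. *Ikzf1*, which encodes Ikaros, went from 620 ± 10.1 to 223 ± 10.8 CPM in WT and from 604 ± 48.3 to 268 ± 11.7 CPM in KO-labelled cells, and *Ikzf5* from 36.2 to 18.2 and from 49.8 to 15.9 CPM. *Ikzf4* was the member of the family that rose in both genotypes. Of the FOXP family, *Foxp1* alone passed the filter of 3 listed besides *Foxp3*, and it fell in both genotypes, from 677 ± 20.0 to 333 ± 28.9 CPM in WT and from 716 ± 22.7 to 334 ± 11.3 CPM in KO-labelled cells.

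*Gpr83* was the member with the highest level per length in WT cells before culture, and it was lower in KO-labelled cells. It was at 103 and 111 CPM in WT and at 23.4 and 27.5 CPM in KO-labelled cells at day 0. The means, 107 ± 5.81 and 25.5 ± 2.90 CPM, differed 4.21-fold (log2 fold change -2.08, SE 0.22, FDR 0.000327), and the call was made in all 20 fits. By day 5 nearly no reads were left, with 1.41 and 1.21 CPM in WT and 1.29 and 0.189 CPM in KO-labelled cells, from 8, 5, 7 and 1 counts. *Gpr83* fell by 6.32 on the log2 scale in WT (SE 0.33, FDR 1.18e-08), 81.9-fold by the means, and by 5.05 in KO-labelled cells (SE 0.38, FDR 2.95e-07), 34.5-fold. The size of the fall in KO-labelled cells depended on the day 5 library, with log2 fold changes of -6.90 without KO replicate 1 of day 5 and -4.27 without KO replicate 2, whose 1 count is under the floor of 3 counts. *Gpr83* passed the filter on low counts only through day 0. A genotype difference at day 5 was not detectable at this depth (log2 fold change -0.81, SE 0.63, FDR 0.635).

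*Nrp1* stayed low in every group. It was at 3.94 and 6.33 CPM in WT and at 3.17 and 2.57 CPM in KO-labelled cells at day 0, and at 4.76 and 6.51, then 3.495 and 3.98 CPM, at day 5. The WT libraries were above those labelled KO at both days, and neither difference was called (log2 fold changes -0.79, SE 0.40, FDR 0.408, and -0.58, SE 0.40, FDR 0.580). Culture did not change it beyond the threshold in WT (0.14, SE 0.40, FDR 0.802) or in KO-labelled cells (0.35, SE 0.41, FDR 0.495). Of 12 listed neuropilins, semaphorins, plexins and related genes, 8 were tested and 0 were called between genotypes. In culture 3 rose and 1 fell in WT, and 4 rose and 2 fell in KO-labelled cells. Of all genes, 48.3% were called in culture in WT and 50.2% in KO-labelled cells. *Vegfb*, *Plxnb2* and *Plxnd1* passed the filter on low counts only through day 5 and *Nrp2* only through day 0, which fixed their direction, so the counts are a description. *Nrp2*, the other neuropilin, fell from 3.85 ± 1.91 to 0.0882 ± 0.125 CPM in WT and from 5.04 ± 1.18 to 0.279 ± 0.126 CPM in KO-labelled cells, and *Plxnb2*, a semaphorin receptor, rose from 0.113 to 3.49 CPM and from 0.184 to 5.12 CPM.

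*Lrrc32* had at most 1 read per library before culture and at least 151 after it. It had 0 and 0 counts in WT and 1 and 0 in KO-labelled cells at day 0, against a floor of 3 counts per library. At day 5 it had 279 and 151 counts in WT and 273 and 287 in KO-labelled cells, which were 49.2 and 36.4 CPM, then 50.2 and 54.3 CPM. It was at least 70.4-fold higher at day 5 in WT (FDR 4.76e-08), taking the mean floor of the day 0 libraries. In KO-labelled cells the ratio was 894 (95% exact counting interval 160 to 35370, FDR 1.22e-08). That ratio rests on the 1 read of KO replicate 1 at day 0, and without that library it has no count to divide by. The genotypes at day 5 differed by 0.28 on the log2 scale (SE 0.21, FDR 0.619). *Lrrc32* passed the filter on low counts only through day 5. Of 9 listed partners of GARP, 4 were tested. *Itgav*, the integrin chain that frees TGF-beta from GARP, was higher in KO-labelled cells at day 0, at 20.4 and 25.3 CPM against 9.84 and 9.05 CPM (log2 fold change 1.26, SE 0.22, FDR 0.0135), and 0 were called at day 5. In culture 2 rose and 1 fell in each genotype. Of all genes, 48.3% were called in culture in WT, 50.2% in KO-labelled cells, and 1.8% between genotypes at day 0. *Hsp90b1*, the chaperone of GARP, rose from 665 ± 3.18 to 1761 ± 415 CPM in WT and from 649 ± 25.0 to 1606 ± 47.8 CPM in KO-labelled cells, and *Furin*, which cleaves pro-TGF-beta, fell from 11.8 to 4.74 and from 10.6 to 4.85 CPM.

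*Capg*, an actin capping protein of the gelsolin family, was lower in KO-labelled cells before culture and not called between genotypes after it. At day 0 it was at 33.8 and 30.5 CPM in WT and at 13.1 and 12.5 CPM in KO-labelled cells, and at day 5 at 1112 and 964 CPM and at 1097 and 1097 CPM. The day 0 means, 32.2 ± 2.32 and 12.8 ± 0.457 CPM, differed 2.51-fold (log2 fold change -1.33, SE 0.14, FDR 0.000395), a call made in all 20 fits. At day 5 the log2 fold change was 0.08 (SE 0.12, FDR 0.826) and the groups overlapped. Culture raised *Capg* by 5.01 in WT (SE 0.14, FDR 1.04e-10), 32.3-fold, and by 6.41 in KO-labelled cells (SE 0.15, FDR 3.96e-11), 85.7-fold. The difference of 1.40 between these changes was called (SE 0.18, FDR 0.0113). That call was lost with an offset for exon length and GC content (1.11, FDR 0.0675) and without WT replicate 1 or 2 of day 0 (FDR 0.138 and 0.0704) or KO replicate 1 or 2 of day 5 (FDR 0.0592 and 0.0559). Of 6 other gelsolin genes, 4 were tested. *Gsn*, gelsolin itself, was the only gene of the list called between genotypes, at 426 and 424 CPM in the KO-labelled day 5 libraries against 238 and 236 CPM in WT (log2 fold change 0.84, SE 0.13, FDR 0.00723). It rose in culture in both genotypes, and *Vil1* fell in KO-labelled cells, from 2.92 to 1.12 CPM. *Vil1* passed the filter on low counts only through day 0, which fixed that direction. Of all genes, 1.63% were called between genotypes at day 5.

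*Axl*, a receptor tyrosine kinase that binds GAS6 and protein S, rose with culture. It was at 4.11 and 7.69 CPM in WT and at 3.26 and 6.42 CPM in KO-labelled cells at day 0, and at 16.2 and 9.88, then 21.3 and 21.8 CPM, at day 5. All day 5 libraries were above all day 0 libraries, and at day 5 both KO-labelled libraries were above WT. The rise was 1.18 in WT (SE 0.39, FDR 0.0251), lost without WT replicate 1 of day 0 or of day 5 (FDR 0.199 and 0.211), and 2.23 in KO-labelled cells (SE 0.38, FDR 0.000336). Genotypes differed by -0.34 at day 0 (SE 0.42, FDR 0.805) and by 0.71 at day 5 (SE 0.35, FDR 0.397), neither of which was called. Of the 4 other TAM receptors and ligands, 2 were tested and 0 were called between genotypes, beside 1.8% of all genes at day 0 and 1.63% at day 5. *Pros1*, which encodes the ligand protein S, rose in culture from 0.607 to 24.0 ± 3.95 CPM in WT and from 0.404 to 14.0 ± 0.550 CPM in KO-labelled cells, and *Tyro3* rose in the latter, from 0.802 to 2.80 CPM. Both passed the filter on low counts only through day 5, which fixed that direction.

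*Cd83*, a membrane protein of activated lymphocytes and dendritic cells, fell with culture. It was at 21.8 and 21.9 CPM in WT and at 15.4 and 22.2 CPM in KO-labelled cells at day 0, and at 1.76 and 2.41, then 2.21 and 3.03 CPM, at day 5. The days did not overlap, and the genotypes overlapped at both. It fell by 3.40 on the log2 scale in WT (SE 0.34, FDR 4.53e-06), 10.48-fold, and by 2.82 in KO-labelled cells (SE 0.32, FDR 1.26e-05), 7.17-fold. The genotype differences were -0.24 (SE 0.26, FDR 0.769) at day 0 and 0.35 (SE 0.42, FDR 0.778) at day 5.

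**Figure D2:**
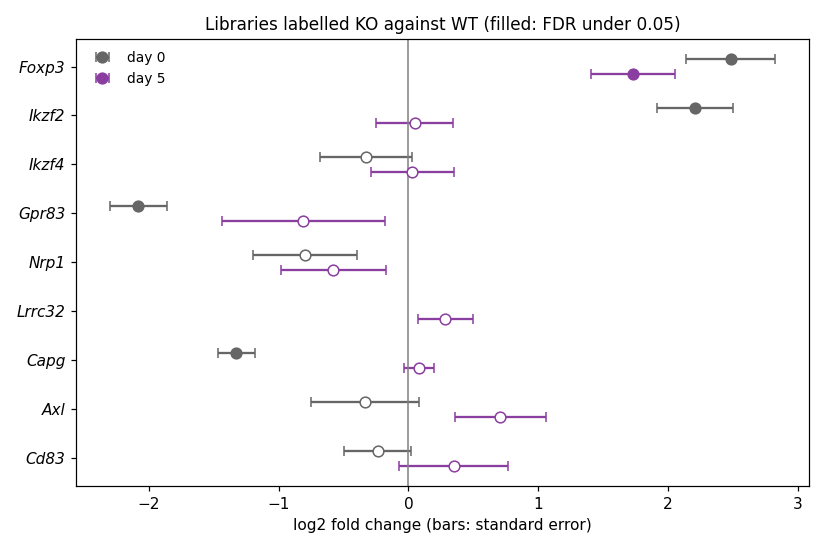
Log2 fold change of each member between KO-labelled cells and WT at day 0 (grey) and day 5 (purple), with the standard error as a bar and filled points for FDR under 0.05. *Lrrc32* has no day 0 point because both groups were under the floor. 4 points are filled at day 0 and 1, *Foxp3*, at day 5.

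At day 5 the genotypes thus differed in 1 of the 9 members, *Foxp3*, where 1.63% of all tested genes were called, and the median member stood at 0.08. In the interaction 1 member was called, *Capg*, where 0.159% of all genes were. Both counts are descriptions, since the members were chosen with earlier results of these data known.

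In culture about as many genes were called as not. In WT 6 of 9 were called, 4 higher (*Ikzf4*, *Lrrc32*, *Capg* and *Axl*) and 2 lower (*Gpr83* and *Cd83*), where 48.3% of all genes were called, 24.7% higher and 23.6% lower. In KO-labelled cells 7 of 9 were called, the same 4 higher and *Ikzf2* besides the same 2 lower, where 50.2% of all genes were called, 26.2% higher and 24% lower. *Gpr83* passed the filter on low counts only through day 0 and *Lrrc32* only through day 5, which fixed their direction, so these counts are a description. The 2 comparisons share no library. *Foxp3* was called in neither, at 0.82 on the log2 scale in WT (SE 0.37, FDR 0.0841) and 0.06 in KO-labelled cells (SE 0.29, FDR 0.875). In WT this ranged from 0.01 to 1.33 over the fits and was called in 4 of 20, among them that without WT replicate 2 of day 5 (FDR 0.00405). Scaling by library totals only shifted the all-gene median by -0.14 (WT) and -0.18 (KO-labelled), and the calls from 3112 higher and 2969 lower to 2668 and 3560 in WT and from 3296 and 3029 to 2755 and 3936 in KO-labelled cells. No call of a member changed with it, and the uncalled *Foxp3* value in KO-labelled cells turned to -0.12.

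**Figure D3:**
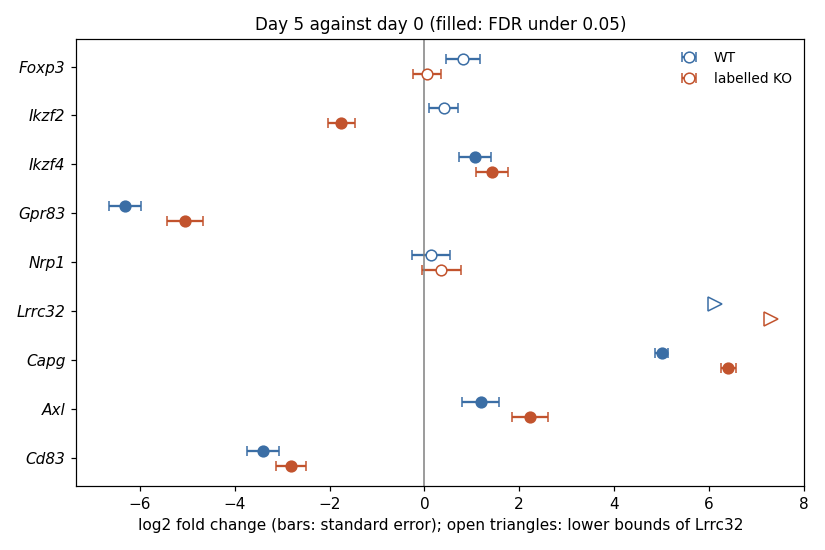
Log2 fold change of each member between day 5 and day 0 in WT (blue) and KO-labelled cells (red), with the standard error as a bar and filled points for FDR under 0.05. For *Lrrc32* the triangles mark lower bounds, from the floor in WT and from the lower limit of the counting interval in KO-labelled cells. *Gpr83* and *Cd83* lie left of 0, *Capg* and *Lrrc32* furthest right, and *Ikzf2* is filled in KO-labelled cells alone.

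The order of the members per length changed with both genotype and culture. As CPM per kilobase of exon, *Gpr83* led in WT at day 0 (21.03), followed by *Capg* (12.7), *Cd83* (8.51) and *Foxp3* (2.13), with *Ikzf2* (1.34), *Axl* (1.17) and *Ikzf4* (1.16) within each other's spread, and *Nrp1* at 0.525. In the KO-labelled day 0 libraries *Foxp3* was at the top (11.98 CPM per kilobase), followed by *Cd83* (7.30) and *Ikzf2* (6.18), whose ranges overlapped, and by *Capg* (5.06) and *Gpr83* (5), which also overlapped. At day 5 *Capg* was far above the rest in both genotypes (410 and 434 CPM per kilobase). *Lrrc32* was next in WT (9.13), above *Foxp3* (3.65). In KO-labelled cells *Foxp3* (12.4) and *Lrrc32* (11.2) overlapped. *Gpr83*, at the top in WT before culture, was the lowest in both genotypes at day 5 (0.257 and 0.145 CPM per kilobase).

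Over the 8 libraries, *Foxp3* and *Ikzf2* had a Pearson r of 0.517 on log2 CPM, and *Foxp3* and *Nrp1* of -0.777. Among the 6 members called in WT culture, r was 0.869 to 0.984 for pairs that moved the same way and -0.989 to -0.824 for the others, and *Ikzf2*, called in KO culture, had r of -0.533 to 0.369 with these 6. These are descriptions over 8 libraries that fall into 4 groups. The tested genes with the highest r to *Foxp3* were *Fam117b* (0.975), *Fgfr1* (0.967), *Tomm40l* (0.962), *1110037F02Rik* (0.959) and *Gm16602* (0.959), and those with the lowest were *Kif7* (-0.982), *Gm9967* (-0.954) and *Ppp1cc* (-0.953). Their changes were unlike in size. *Gm16602* was at 1.07 and 2.49 CPM in WT and 10.2 and 11.9 CPM in KO-labelled cells at day 0, whereas *Fam117b* was at 29.9 and 30.3 against 38.4 and 40.4 CPM. Of these 8 genes, *Gm16602* (log2 fold change 2.66, FDR 0.00492) and *Gm9967* (-4.33, FDR 7.26e-05) were called at day 0, and these genes and *1110037F02Rik* (0.56, FDR 0.0448) at day 5. Of all genes, 1.8% and 1.63% were called at these days. The 8 genes were picked in the same libraries for their r to *Foxp3*, which separates the genotypes. Their calls are therefore a description and not a test.

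Beyond the members, 101 other genes of regulatory T cells and of the members' families were listed, of which 77 were tested. Between genotypes, 5 of them were called at day 0 (3 higher and 2 lower in KO-labelled cells), beside 1.8% of all genes, and 6 at day 5 (4 higher and 2 lower), beside 1.63%. In culture 55 were called in WT (34 higher, 21 lower), beside 48.3% of all genes, and 62 in KO-labelled cells (36 higher, 26 lower), beside 50.2%. In the interaction 2 were called, both lower, beside 0.159%. Of the 77, 14 passed the filter on low counts only through day 5 and 2 only through day 0, which fixed their direction in culture, so the culture counts are descriptions. The median log2 fold changes of the 77 genes were 0.08 and 0.05 between genotypes, beside medians of 0.00 over all genes.

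Of 30 surface and effector genes of regulatory T cells, 20 were tested, and at day 0 1 was higher and 1 lower, beside 1.8% of all genes called. *Ctla4*, the inhibitory receptor that FOXP3 is known to sustain, was at 3.22 and 2.71 CPM in WT and 40.3 and 21.7 CPM in KO-labelled cells (log2 fold change 3.40, SE 0.32, FDR 0.000106). *Izumo1r*, the folate receptor 4 of regulatory T cells, was lower, at 74.5 and 62.2 CPM against 133 and 144 CPM (-1.02, SE 0.16, FDR 0.0076). *Il2ra*, which encodes CD25, was at 1.79 and 3.17 CPM in WT and 7.38 and 3.67 CPM in KO-labelled cells and was not called (1.30, SE 0.38, FDR 0.133). At day 5, 0 of the 20 were called between genotypes, beside 1.63% of all genes.

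In culture, 15 of the 20 rose and 3 fell in each genotype, where of all genes tested 24.7% rose and 23.6% fell in WT and 26.2% rose and 24% fell in KO-labelled cells. Of the 20, 6 passed the filter on low counts only through day 5 (*Ccr4*, *Il10*, *Ebi3*, *Fgl2*, *Socs2* and *S100a4*) and so had to be higher there, and the count is given as a description. *Il2ra* rose from 2.48 ± 0.974 to 1945 ± 264 CPM in WT and from 5.52 ± 2.62 to 1804 ± 251 CPM in KO-labelled cells. *Ctla4* reached 283 ± 16.2 and 269 ± 9.80 CPM, so that its genotype difference at day 0 was no longer seen (-0.07, FDR 0.917), and the interaction was called (-3.47, SE 0.38, FDR 0.00795), though not without WT replicate 1 or 2 of day 0 (FDR 0.0992 and 0.0704). *Entpd1*, which encodes the ectoenzyme CD39, rose from 2.17 to 128 CPM in WT and from 0.863 to 135 CPM in KO-labelled cells. *Il10*, *Ebi3* and *S100a4* were without a count in WT at day 0 and were at 3.92, 6.43 and 6.55 CPM in WT at day 5. *Itgae*, the integrin chain CD103 of resident CD8 and regulatory T cells, was among those that fell.

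**Figure D4:**
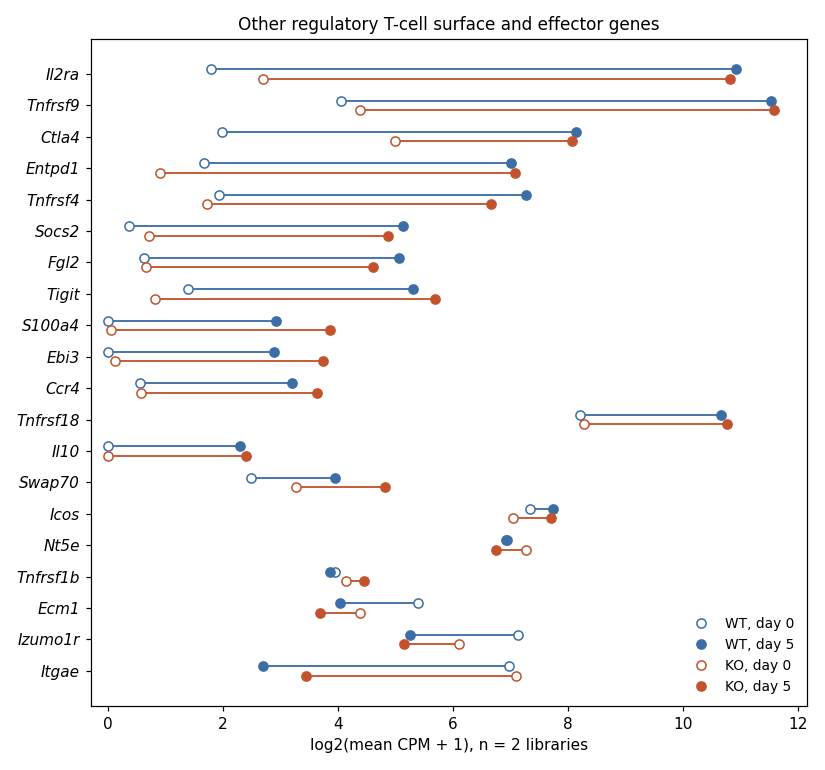
Log2(mean CPM + 1) of the 20 tested surface and effector genes at day 0 (open) and day 5 (filled), in WT (blue) and KO-labelled cells (red), each point the mean of 2 libraries. Most lines run to the right and end at about the same level in both genotypes, *Il2ra*, *Tnfrsf9* and *Ctla4* among the longest, and those of *Itgae*, *Izumo1r* and *Ecm1* run to the left.

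Of 27 transcription factors and cofactors of regulatory T cells, 26 were tested. At day 0, 0 were called, beside 1.8% of all genes, and at day 5 2 were higher in KO-labelled cells, beside 1.63% of all genes called. These were *Dnmt1*, the maintenance DNA methyltransferase, at 191 and 234 CPM against 118 and 97.8 CPM in WT (log2 fold change 0.98, SE 0.16, FDR 0.00931), and its partner *Uhrf1*, at 116 and 146 against 66.7 and 60.2 CPM (1.04, SE 0.19, FDR 0.0169). In culture 8 rose and 9 fell in WT, and 10 rose and 10 fell in KO-labelled cells. Of all genes tested, 24.7% rose and 23.6% fell in WT, and 26.2% rose and 24% fell in KO-labelled cells. *Prdm1* and *Nr4a2* passed the filter on low counts only through day 5, which fixed their direction, so the culture counts are a description. *Irf4*, a factor of activated T cells, rose from 1.40 to 28.4 ± 5.44 CPM and from 2.76 to 42.7 ± 2.82 CPM, and *Nr4a1*, an early response gene of the T-cell receptor, fell from 15.9 to 2.48 and from 16.2 to 2.42 CPM.

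All 9 listed genes that FOXP3 is known to keep low were tested. The list includes *Satb1* itself, the targeted gene. At day 0, 1 was higher and 1 lower, beside 1.8% of all genes called. *Il2*, the growth factor that regulatory T cells do not make, had 1 and 2 counts in WT and 68 and 50 in KO-labelled cells, a ratio of 23.0 (95% exact counting interval 7.69 to 113, FDR 0.00236). *Il2* passed the filter on low counts only through KO-labelled libraries, which fixed that direction, so the ratio is a description. *Igfbp4*, a naive T-cell gene, was at 47.4 and 41.3 CPM against 122 and 130 CPM in WT (log2 fold change -1.50, SE 0.23, FDR 0.00547). At day 5, 1 was higher and 2 were lower, beside 1.63% of all genes called. *Il7r*, the IL-7 receptor, was at 49.5 and 55.1 CPM against 18.3 and 29.6 CPM (1.14, SE 0.18, FDR 0.00909), *Ifng* at 3.13 and 2.08 CPM against 16.1 and 7.95 CPM (-2.21, SE 0.47, FDR 0.0429), and the other was *Satb1*. In culture 4 rose and 4 fell in WT and 2 rose and 5 fell in KO-labelled cells. Of all genes tested, 24.7% rose and 23.6% fell in WT, and 26.2% rose and 24% fell in KO-labelled cells. *Ifng* passed the filter on low counts only through day 5, which fixed its direction in culture.

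Most genotype calls of these listed genes depended on single libraries. At day 0 *Ctla4* was called in all 20 fits. Without WT replicate 1 of day 0 the calls of *Igfbp4* (FDR 0.0742), *Il2* (0.0742), *Itgav* (0.131) and *Izumo1r* (0.0830) were lost, and without WT replicate 2 those of *Igfbp4* (0.0802), *Itgav* (0.146) and *Izumo1r* (0.119). *Izumo1r* was also lost without KO replicate 2 of day 0 (0.0640). At day 5, leaving out KO replicate 2 lost *Dnmt1* (0.170), *Gsn* (0.0977), *Il7r* (0.0989), *Satb1* (0.156) and *Uhrf1* (0.261), and leaving out KO replicate 1 lost *Gsn* (0.0695), *Satb1* (0.174) and *Uhrf1* (0.0582). Without WT replicate 2 of day 5, *Dnmt1* (0.0638), *Satb1* (0.0848) and *Uhrf1* (0.100) were lost, and without WT replicate 1 *Uhrf1* (0.0506). *Il7r* was lost with only the 4 libraries compared (0.0543). *Ifng* was called in 11 of 20 fits, DESeq2 gave it no adjusted p, and its log2 fold change was -1.59 without WT replicate 1 of day 5 (FDR 0.310). The direction was kept in each of these fits.

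Markers of other cells moved with some of these groups. The summed level of 4 gamma delta T-cell markers was 62.3 to 93.4 CPM in WT and 159 to 160 CPM in KO-labelled cells at day 0, and 321 to 347 and 514 to 611 CPM at day 5. Of the 4, *Tcrg-C1*, *Tcrg-C2* and *Tcrg-C4* were called higher at day 0 and *Tcrg-C2* and *Tcrg-C4* at day 5, like *Foxp3*. *Trdc*, the delta constant gene, was not called between genotypes, at 53.3 and 81.9 CPM in WT against 80.9 and 77.3 CPM at day 0. The markers did not move together in culture, where the 3 *Tcrg* genes were called higher and *Trdc* lower in each genotype. At day 5 *Trdc* was at 27.3 and 45.3 CPM in WT and at 29.4 and 21.4 CPM in KO-labelled cells. Among 3 natural killer markers the sum was 146 to 159 CPM in WT and 47.2 to 48.2 CPM in KO-labelled cells at day 0, and 103 and 52.6 to 55.9 CPM at day 5, nearly all of it *Klrd1*, a receptor that CD8+ T cells also carry, and *Ncr1* had less than 1 CPM in each library. *Klrd1*, the 1 of the 3 that was tested, was called lower in KO-labelled cells at day 0 (log2 fold change -1.69, SE 0.14, FDR 4.27e-05) and at day 5 (-0.91, SE 0.14, FDR 0.00681). Among 5 B-cell markers the sum was 145 to 181 CPM at day 0 and 74.4 to 88.7 CPM at day 5, and of the 2 tested 0 were called between genotypes. Among 12 myeloid and dendritic cell markers it was 94.8 to 140 CPM at day 0 and 308 to 413 CPM at day 5, when *Itgax*, *Adgre1* and *Clec9a* were at 0 in all 4 libraries. In culture *Cst3* and *H2-Ab1* rose and *Csf1r* and *H2-Aa* fell in each genotype, and *Itgam* fell in WT. Of these, *H2-Ab1* passed the filter on low counts only through day 5 and *H2-Aa* and *Itgam* only through day 0. Of the 12, 6 were tested and 0 were called between genotypes. The part of these cells in the values of the members was not tested.

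**Figure D5:**
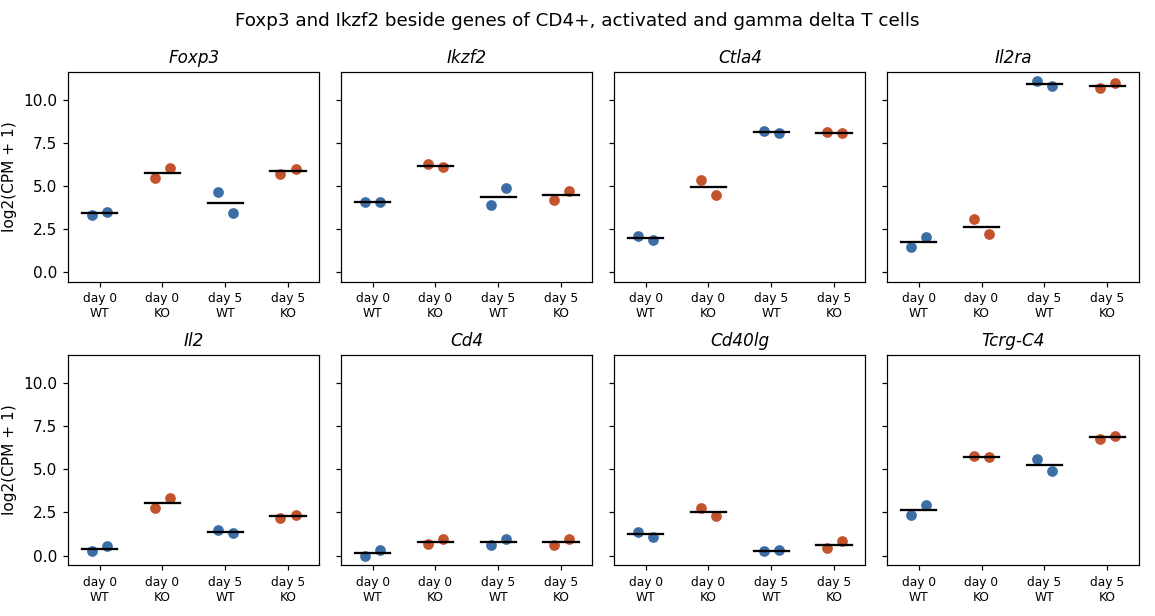
Log2(CPM + 1) of *Foxp3*, *Ikzf2*, *Ctla4*, *Il2ra*, *Il2*, *Cd4*, *Cd40lg* and *Tcrg-C4* in the 8 libraries (points; blue WT, red labelled KO) on a common axis, with the mean of each group as a bar. Each of these genes is higher in both KO-labelled day 0 libraries than in both WT libraries of that day. *Cd4* stays below 1 CPM in every library and was not tested, and *Il2ra* and *Cd40lg* were not called there.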

How the data were processed

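RNA was sequenced from 8 libraries of splenic CD8+ T cells. Per the labels, sorted cells were extracted with Trizol and a Direct-zol kit, libraries were made with a NEBNext Ultra RNA kit, and 50 bp reads were read on a HiSeq2500. The authors deposited raw counts per gene symbol for each library, neither normalized nor pooled. The submitters' processing notes name HISAT2 2.1.0, HTSeq 0.11.1 and the mm10 (GRCm38) assembly. The annotation and the strand setting were not given in the sources used here. Total counts per library ranged from 4170126 to 11117971, and a count of 3 in a library was taken as the floor. Floors and intervals cover counting error only.

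Counts were tested with the quasi-likelihood F-test of edgeR 4.0.16 (R 4.3.3): all 8 libraries, 1 mean for each group, scaling by TMM (trimmed mean of M-values), the default filter (minimum count 10; 12597 genes of 48321 symbols) and two-sided p-values adjusted by Benjamini-Hochberg over all genes tested (FDR), with FDR under 0.05 called. CPM used the TMM-scaled library size. SE is the log2 fold change divided by the square root of F. Coordinates and exon lengths came from GENCODE M21 (GRCm38; 46288 symbols matched) and promoter windows from RefSeq (GRCm38.p6).

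Alternative settings were: size factors from DESeq2 in the edgeR fit; scaling by library totals; no low-count filter; 5 CPM or more in 2 libraries; fits to the 4 compared libraries; a block on replicate number; the newer edgeR 4 test; a robust prior; DESeq2 1.42.0; thinning to 4170126 counts; an offset for exon length and GC content (span of the loess 0.3, with values for 96.7% of tested genes); and leaving out each library. Named genes were the 9 members, *Satb1*, the 5 genes most like and the 3 least like *Foxp3*, listed genes called between genotypes or in the interaction, and per list up to 4 with the largest change in culture, of which some are given. *Cd8a*, *Klrd1* and the other marker genes are named where a result turns on them. The members and lists were chosen with earlier results of these data known.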

Additional observations from a re-analysis of the deposited data

Results flagged for a closer look

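For 3 of the members and listed genes the difference between genotypes itself differed between the days, by the interaction term of the edgeR quasi-likelihood fit with Benjamini-Hochberg adjustment over 12597 genes. *Capg* had an interaction of 1.40 on the log2 scale (SE 0.18, FDR 0.0113), with a log2 fold change of -1.33 between the libraries labelled KO and WT at day 0 and 0.08 at day 5. Both day 0 libraries labelled KO lay below both WT libraries, and the genotypes overlapped at day 5. The *Capg* interaction was called in 14 of 19 fits. It was not called without either WT library of day 0, without either KO library of day 5 or with the offset for exon length and GC content. *Ctla4* had an interaction of -3.47 (SE 0.38, FDR 0.00795), with 3.40 at day 0 and -0.07 at day 5, and was not called without WT replicate 1 or 2 of day 0 (-3.62, FDR 0.0992, and -3.37, FDR 0.0704). *Satb1*, the targeted gene, had an interaction of -1.34 (SE 0.21, FDR 0.0269), with 0.51 at day 0, which did not pass the threshold, and -0.84 at day 5. It was called in 12 of 19 fits, and not without WT replicate 1 or 2 of day 0 (FDR 0.156 and 0.231), KO replicate 1 of day 0 (0.0501), WT replicate 2 of day 5 (0.0556), KO replicate 1 or 2 of day 5 (0.177 and 0.122) or with the offset for exon length and GC content (0.0675).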

How the results depend on the processing

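Over 19 alternatives, the calls of *Gpr83* and *Capg* at day 0 and of the 7 members called in the culture of the cells labelled KO were made every time. *Foxp3* and *Ikzf2* at day 0 were not called when WT replicate 1 or 2 of day 0 was left out, and the number of members called at day 0 ranged from 2 to 4 over the leave-one-out fits. At day 5 it ranged from 0 to 1, in WT culture from 4 to 7, in KO culture from 7 to 7 and in the interaction from 0 to 2. The interaction was called for 2 members, *Capg* and *Ikzf2*, with no filter on low counts, the robust prior, DESeq2 and equal depth, and for 0 with the offset for exon length and GC content. Among the other listed genes, no filter gave 10 calls at day 0 in place of 5 and 6 in the interaction in place of 2, and DESeq2 also gave 6. Over all genes, the 227 calls at day 0 became 434 with no filter, and 38 and 49 without WT day 0 replicate 1 and 2. The 205 calls at day 5 became 418 with no filter, 350 with DESeq2, 117 with the offset and between 32 and 121 without a library of WT at day 0, WT replicate 2 at day 5 or a KO library at day 5. The 20 interaction calls became 154 with no filter, 144 with DESeq2, 50 at equal depth, 42 with the robust prior, 13 with the offset and between 0 and 41 over the leave-one-out fits. Causes were not tested.

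24 values turned sign, each of a member not called in that comparison. When libraries were left out, the log2 fold changes concerned ran at day 0 from -0.64 to 0.033 for *Ikzf4*, from -0.79 to 0.15 for *Axl* and from -0.48 to 0.017 for *Cd83*. At day 5 they ran from -0.39 to 0.63 for *Ikzf2*, from -0.25 to 0.36 for *Ikzf4* and from -0.020 to 0.20 for *Capg*. In culture they ran from -0.15 to 0.88 for *Ikzf2* and from -0.17 to 0.51 for *Nrp1* in WT, and from -0.20 to 0.37 for *Foxp3* in KO. In the interaction they ran from -1.25 to 0.084 for *Foxp3*, from -0.0078 to 0.68 for *Ikzf4*, from -0.60 to 2.04 for *Gpr83* and from -0.15 to 0.53 for *Nrp1*. With the offset the values were -0.15 for *Ikzf4*, -0.018 for *Lrrc32* and -0.096 for *Capg* at day 5, -0.047 for *Nrp1* in WT culture and -0.061 for *Foxp3* in KO culture. With library totals only, *Foxp3* was at -0.12 in KO culture.

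The groups share replicate numbers, and the labels do not say that a number marks a shared mouse or batch. Deviations of same-numbered libraries correlated at 0.00438 at day 0, -0.0165 at day 5, 0.118 in WT and 0.228 in KO. With the replicate block, 4, 1, 6, 7 and 1 members were called in the 5 comparisons, as without it. With 2 libraries a group, an SD rests on 1 degree of freedom, and leaving out a library assumes that the remaining one varies like the other groups. Low counts limit *Gpr83* at day 5 (1 to 8 reads per library), *Cd83* at day 5 and *Lrrc32* at day 0.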
